A study of Homo sapiens with 79 samples.

Results

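DNMT1 fRIP-seq measured which RNAs were recovered with the DNA methyltransferase DNMT1 after mild formaldehyde crosslinking of K562 cells, relative to the RNA of the lysate itself. The comparison rests on 6 of the 79 libraries in the series, namely 3 DNMT1 fRIP libraries and the 3 libraries of input set 1. Of the 3 input sets, set 1 lay nearest to the input value that the authors pooled for their DNMT1 comparison, with a median absolute log2 ratio of 0.162 (0.362 for set 2 and 0.339 for set 3). The other 6 inputs, of sets 2 and 3, were used as a check, and the CHD4 and CTCF fRIPs (3 libraries each) for direct contrasts. Over 25442 genes tested, 2684 were enriched and 2554 were depleted in the DNMT1 fRIP. The replication-dependent histone mRNAs were the gene list most enriched over input set 1, and the 13 mRNAs encoded by the mitochondrial genome were the list most depleted, with a median log2 fold change of -4.03.

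DNMT1 is the maintenance DNA methyltransferase. It copies CpG methylation onto the daughter strand behind the replication fork, where it is brought to hemimethylated sites by UHRF1 and to the fork by PCNA. It carries no classical RNA binding domain, but it has been reported to bind noncoding RNA, the best known case being a transcript from the CEBPA locus.

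The series profiled 24 proteins by fRIP in K562, an erythroleukaemia line, next to 9 input libraries in 3 sets. All libraries came from cells crosslinked with 0.1% formaldehyde for 10 minutes and lysed by sonication, so that cytoplasmic and nuclear RNA were both present. The DNMT1 libraries were made from RNA that 1 antibody against DNMT1 brought down, and the inputs from lysate set aside before any antibody was added. The antibody comes from a field that is the same for the 3 DNMT1 libraries, whereas the extraction text, which is 1 and the same for all 79 libraries, names an antibody against HuR. No fRIP with a control antibody was used here, so RNA held by DNMT1 and RNA that beads or antibody recover in general cannot be told apart. The study states that replicates came from separate lysates made on separate dates. Values are FPKM, fragments per kilobase of transcript and per M (10 to the power of 6) mapped fragments, and a fold change is the difference in log2(FPKM + 1), which understates the change of low genes.

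A read depth of 32.8 to 58.5 M fragments was estimated for the DNMT1 libraries and of 20.5 to 22.5 M for input set 1, from the value that 1 fragment takes in genes with a single isoform. Log2 values of the DNMT1 libraries correlated with each other at 0.978 to 0.986 over the 25442 genes, and with those of input set 1 at 0.908 to 0.921. With the inputs of sets 2 and 3 they correlated at 0.911 to 0.945. All 12 K562 markers (among them globins, TFRC and erythroid transcription factors) were at 1 FPKM or more in input set 1. Of 12 markers of other lineages, 4 were at 0 there and 2 reached 1 FPKM, the highest being CD3D at 24.1 FPKM. DNMT1 replicate 3 stood apart in part: it held the highest share of histone mRNAs and the highest HBG2, HBG1 and HBE1 levels of the 3.

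A gene was called when its adjusted p was under 0.05 in a limma fit over all 79 libraries and its fold change was beyond 2 in either direction. By this rule 10.5% of the genes tested were enriched and 10% depleted, and the median log2 fold change over all of them was 0.01. With no overlap between the 3 DNMT1 and 3 input libraries as the only criterion, 30.8% were higher and 28.8% lower. When each library was first centred on its median, the split became 4399 enriched (17.3% of genes) and 1663 depleted (6.54%), so enriched genes made up 72.6% of calls in place of 51.2%, and the median moved to 0.29. Depleted genes were mostly of low level. Of 8031 genes at 1 to 10 FPKM in input, 1853 were depleted and 826 enriched, while of 7251 genes at 10 to 100 FPKM, 241 were depleted and 1430 enriched. Among mRNA genes alone, 15.4% were enriched and 2.81% depleted. The share enriched was 19.9% for mRNAs at 10 to 100 FPKM and 30.3% for those over 100 FPKM. Counts in lists of mRNAs are to be read beside these shares as well.

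**Figure D1:**
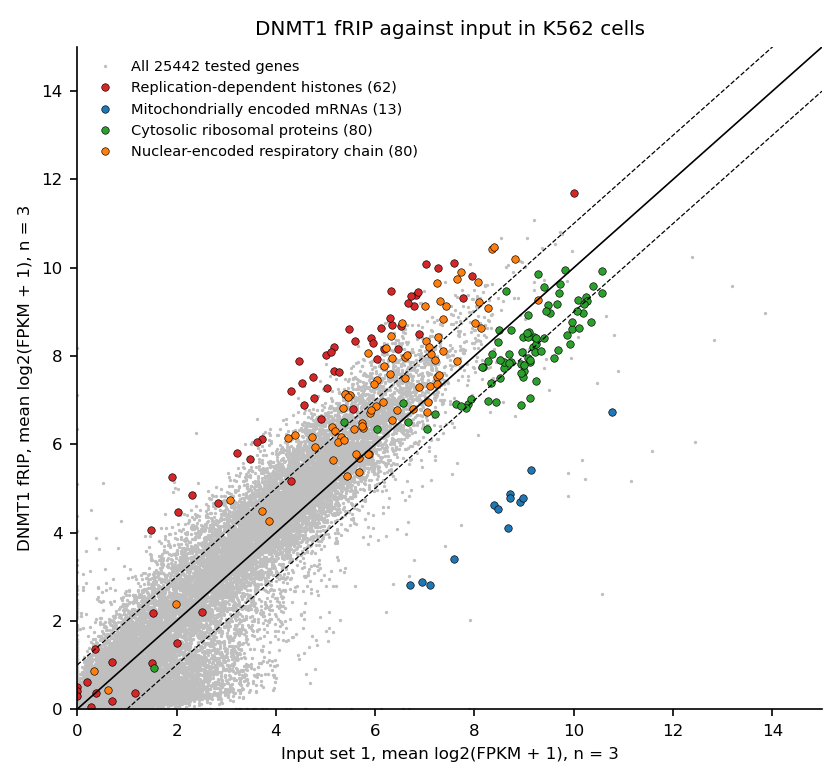
Mean log2(FPKM + 1) of the 3 DNMT1 fRIP libraries (vertical) against that of the 3 libraries of input set 1 (horizontal) for 25442 genes, with 4 gene lists coloured. The solid line marks equal values and the dashed lines 2-fold differences. Most of the 62 histone mRNAs lie above the upper dashed line, and the 13 mitochondrially encoded mRNAs form a separate cloud far below the lower one.

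Replication-dependent histone genes are expressed in S phase and make mRNAs without a poly(A) tail, which end in a conserved stem-loop bound by SLBP. Of 69 such genes in the table, 62 were tested. Against input set 1, 48 were enriched and 0 depleted, where 10.5% and 10% of all genes were, with a median log2 fold change of 2.34. All families took part: 14 of 14 H2A, 15 of 19 H2B, 8 of 11 H4, 7 of 12 H3 and 4 of 6 H1 mRNAs were enriched. The members that were not enriched were almost all near the floor, such as HIST3H3, at 0.249, 0.364 and 0.279 FPKM in DNMT1 and 1.22, 1.35 and 1.19 FPKM in input. Histone gene copies are close in sequence, so the value of a single copy depends on how reads were divided among them.

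HIST2H2AC encodes an H2A protein in the cluster on chromosome 1. It measured 552, 747 and 846 FPKM in the 3 DNMT1 libraries and 86.8, 75.7 and 74.9 FPKM in input set 1. The groups did not overlap, and the log2 fold change was 3.14 ± 0.26 (SE, adjusted p = 6.8e-15). Against set 2 it was 1.56, and against set 3 it was 0.9, below the fold that a call required. HIST1H4B, one of the H4 genes of the chromosome 6 cluster, stood at 281, 333 and 641 FPKM against 35.1, 46.1 and 49.4 FPKM, a log2 fold change of 3.15 ± 0.31 (adjusted p = 9.3e-13). HIST1H2BA, the testis H2B gene, stood at 20.8, 33.3 and 73.9 FPKM against 2.36, 2.6 and 3.43 FPKM. HIST1H3F had the largest change of the list, with 165, 192 and 406 FPKM against 22.8, 19.8 and 21.1 FPKM and a log2 fold change of 3.4 ± 0.25 (adjusted p = 3.5e-17). In each of these 4 genes DNMT1 replicate 3 was the highest library. Linker histone HIST1H1C was the most abundant member, at 2534, 3795 and 3734 FPKM in DNMT1 and 938, 1068 and 1078 FPKM in input.

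The stem-loops of 4 enriched members and of the lowest 2 members are shown because they are the feature that sets this class of mRNA apart. Each is read 5′ to 3′ from GENCODE v44 on hg19, with the stem-loop in capitals and its flanks in lower case.
HIST1H2BA: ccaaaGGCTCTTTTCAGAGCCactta
HIST1H4B: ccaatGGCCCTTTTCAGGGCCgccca
HIST2H2AC: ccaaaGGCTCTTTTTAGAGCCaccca
HIST1H4J: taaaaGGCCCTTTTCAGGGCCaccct
HIST3H3: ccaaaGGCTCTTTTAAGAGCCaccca
HIST1H1A: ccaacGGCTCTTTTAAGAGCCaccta
They lie at chr6:25727548-25727573 (+), chr6:26027124-26027149 (-), chr1:149858936-149858961 (+), chr6:27792232-27792257 (+), chr1:228612549-228612574 (-) and chr6:26017260-26017285 (-), in that order, each within 8 bases of the annotated 3′ end. The pattern GGNNNTTTTNANNNCC, searched on the transcript strand, was present in the last 100 bases of 32 of the 33 tested histone genes that could be matched to the annotation, and in 0.295% of 13574 other mRNA genes. The stem-loop was thus present in enriched and not enriched members alike. Of the 32 histone genes with the pattern, 28 were enriched.

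The size of the histone result depended on the input set. Of all genes, 10.6% were enriched and 6.14% depleted against set 2, and 9.01% and 5.33% against set 3, and counts against those sets are to be read beside these shares. Histone mRNAs made up 2.4%, 3% and 3.78% of summed FPKM in the DNMT1 libraries and 0.736%, 0.782% and 0.79% in input set 1, but 1.45% to 2.18% in the 6 other inputs. All 3 DNMT1 libraries were above all 9 inputs. Against set 2, 24 of the 62 members were enriched (median log2 fold change 0.91), against set 3 12 (median 0.6), and against all 9 inputs 38 (median 1.21), where 9.56% of all genes were enriched and 6.88% depleted. HIST1H4J, at 104, 120 and 255 FPKM against 14.6, 21.3 and 21.5 FPKM in set 1, had a log2 fold change of 2.9 against set 1 and of 0.27 against set 3. Leaving out any 1 library gave counts between 47 and 49. Every DNMT1 library was above every one of the 9 inputs in 35 of the 62 members, as it was in 21.9% of all genes.

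Replacement histones, which are made through the cell cycle from polyadenylated mRNAs, were added to the lists after the values were seen. Of 8 tested, 6 were enriched, where 10.5% of all genes were, with a median log2 fold change of 1.46. H3F3B, which encodes H3.3, stood at 1033, 1137 and 1097 FPKM against 227, 246 and 244 FPKM. H2AFZ, which encodes H2A.Z, stood at 870, 904 and 1029 FPKM against 217, 266 and 262 FPKM. CENPA, the centromeric H3 variant, stood at 81.3, 78.3 and 106 FPKM against 25.3, 27.5 and 28.6 FPKM. In all 3 genes the groups were well apart, and 4 of the 8 mRNAs were enriched against set 2 and 4 against set 3. None of the 8 carried the stem-loop pattern in its last 100 bases (0 of 8).

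Mitochondrially encoded mRNAs are transcribed and translated inside the organelle and code for core subunits of complexes I, III and IV and of ATP synthase. All 13 were depleted, where 10% of all genes were, with log2 fold changes from -4.58 to -3.71 and a median of -4.03. Their share of summed FPKM was 0.062%, 0.0607% and 0.0418% in the DNMT1 libraries and between 0.965% and 1.25% in the 9 inputs. MT-ATP8, of ATP synthase, fell from 416, 433 and 382 FPKM in input set 1 to 16, 16.4 and 16.3 FPKM, a log2 fold change of -4.58 ± 0.29 (adjusted p = 1.4e-19). MT-ND4, of complex I, stood at 25.3, 27.3 and 22.4 FPKM against 499, 474 and 473 FPKM. MT-ND6, the complex I subunit encoded on the other strand from the rest, stood at 6.53, 5.19 and 6.55 FPKM against 145, 137 and 126 FPKM. MT-CO3, the most abundant of the 13, stood at 118, 122 and 82.4 FPKM against 1890, 1685 and 1680 FPKM. No DNMT1 library came near any input for these genes. All 13 were depleted against each of the 3 input sets, with medians of -4.07 against set 2 and -4.01 against set 3, and in every alternative that was run.

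**Figure D2:**
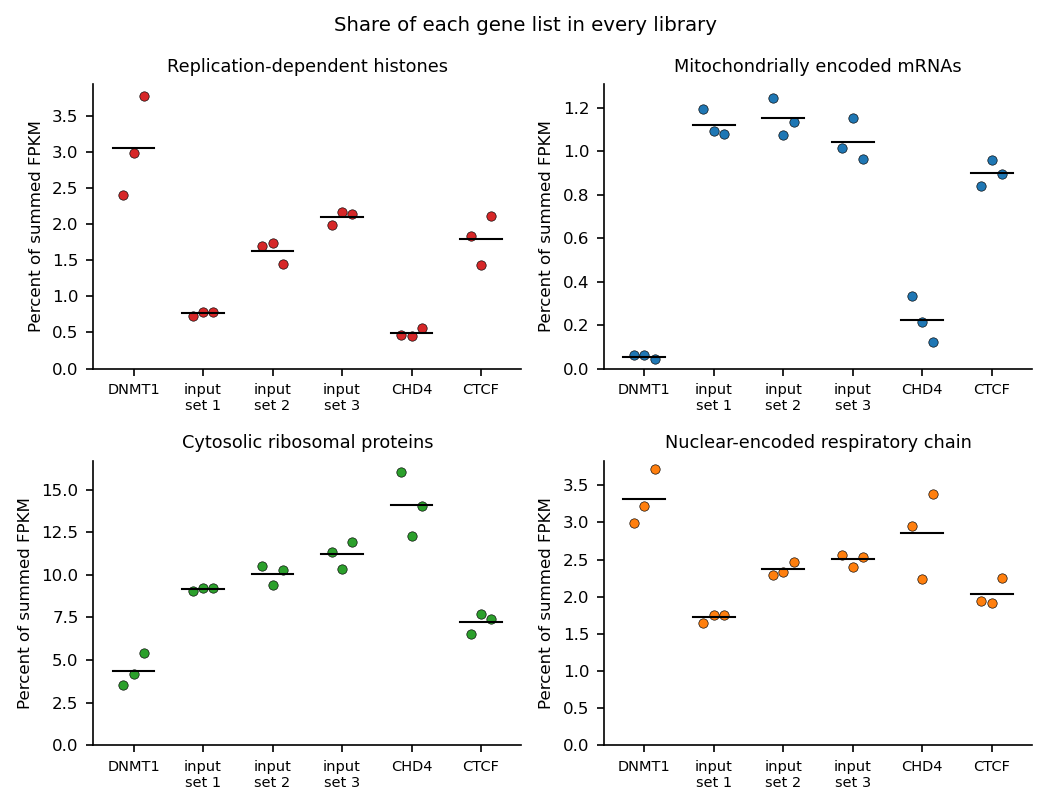
Percent of summed FPKM taken by 4 gene lists in each library (points) with the mean of 3 libraries (bars), for the DNMT1, CHD4 and CTCF fRIPs and the 3 input sets. The DNMT1 libraries are above all inputs for histone mRNAs (2.4% to 3.78%) and respiratory chain mRNAs, and below all inputs for mitochondrially encoded and ribosomal protein mRNAs.

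Cytosolic ribosomal protein mRNAs and several elongation factor mRNAs share a terminal oligopyrimidine tract at the 5′ end, which places their translation under mTOR control. Of 80 ribosomal protein mRNAs, 30 were depleted and 1 (RPS26) was enriched, where 10% and 10.5% of all genes were. The median log2 fold change was -0.87. They took 3.52%, 4.17% and 5.41% of summed FPKM in the DNMT1 libraries and 9.07% to 12% in the 9 inputs, so the groups did not overlap. RPS2 stood at 99.2, 107 and 149 FPKM in DNMT1 and 435, 521 and 525 FPKM in input set 1, a log2 fold change of -2.07 ± 0.17 (adjusted p = 5.9e-15). RPS3A stood at 104, 130 and 171 FPKM against 528, 573 and 569 FPKM. Against sets 2 and 3 the depleted members numbered 50 and 53, where 6.14% and 5.33% of all genes were depleted. After centring on the library median they numbered 15, where 6.54% of all genes were depleted. Without DNMT1 replicate 1 or 3 they numbered 20 and 45, where 2489 and 2498 of the 25442 genes were depleted.

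Among 36 translation factors, 10 were depleted, where 10% of all genes were, and 5 enriched, a share near the 10.5% of all genes. PABPC1, the cytoplasmic poly(A) binding protein, stood at 155, 146 and 147 FPKM against 692, 729 and 741 FPKM, a log2 fold change of -2.26 ± 0.13 (adjusted p = 3.3e-21). EEF1G, a subunit of the elongation factor 1 complex, stood at 76.8, 100.3 and 122 FPKM against 421, 460 and 471 FPKM. TPT1, EEF1A1, EIF4B and EEF2 also fell, by 1.87, 1.75, 1.72 and 1.65 on the log2 scale. EIF3E, EIF3L, EIF3F and EIF5B were the other depleted members, while EEF1B2, EEF1D and EIF3H, at -0.53, -0.18 and -0.9, were not called. The enriched factors were EIF5A, EIF5, EIF4G2, EIF2S1 and EIF6, with log2 fold changes of 1.95, 1.51, 1.38, 1.31 and 1.11. Against input set 3, 12 were depleted and 2 enriched, and against set 2, 10 and 2.

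Nuclear-encoded mRNAs of the respiratory chain went the opposite way from those of the mitochondrial genome. Of 80, 38 were enriched and 0 depleted, where 10.5% and 10% of all genes were, with a median log2 fold change of 0.89. COX6C, a small subunit of cytochrome c oxidase, stood at 683, 724 and 1070 FPKM in DNMT1 against 131, 159 and 166 FPKM in input set 1, a log2 fold change of 2.41 ± 0.24 (adjusted p = 1.3e-12). NDUFA1, an accessory subunit of complex I, stood at 380, 409 and 513 FPKM against 88.8, 94.4 and 91.6 FPKM. ATP5G1, COX7A2, COX7B and NDUFC2 followed, with log2 fold changes between 2.13 and 2.21. The list took 2.99%, 3.22% and 3.72% of summed FPKM in DNMT1 and 1.65% to 2.56% in the 9 inputs. The enriched members numbered 24 against all 9 inputs, where 9.56% of all genes were enriched. They numbered 17 of 80 against set 2, where 10.6% of all genes were enriched, and 13 against set 3, where 9.01% were.

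Mitochondrial ribosomal protein mRNAs, also of nuclear origin, had 24 of 79 members enriched and 0 depleted (median 0.66), where 10.5% and 10% of all genes were. However, 4 were enriched and 4 depleted against set 2 and again against set 3, and 15 were enriched without DNMT1 replicate 3. The shares enriched against sets 2 and 3 were below those of all genes. Against all 9 inputs 7 members were enriched, again a share below the 9.56% of all genes. MRPL55 stood at 168, 164 and 233 FPKM against 29.7, 33.7 and 36.3 FPKM, and MRPL18 at 226, 222 and 286 FPKM against 49.9, 55.9 and 53.5 FPKM. Both had every DNMT1 library above all 9 inputs. Of 38 proteasome mRNAs, 9 were enriched and 1 (PSMD5) was depleted, where 10.5% and 10% of all genes were, with a median of 0.59. PSMB10, a catalytic subunit of the immunoproteasome, stood at 72.9, 62 and 109 FPKM against 25.3, 19 and 22.3 FPKM. PSMD14, the deubiquitinase of the proteasome lid, had a log2 fold change of 1.57 ± 0.22 (adjusted p = 3.2e-08). Its change was 0.94 against set 2 and 0.96 against set 3, where its call was lost. Only 2 of the 38 proteasome mRNAs were enriched against set 2 and 2 against set 3, a share below the 10.6% and 9.01% of all genes. Against all 9 inputs 4 were enriched, near the 9.56% of all genes, and after centring 15 were, where 17.3% of all genes were.

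**Figure D3:**
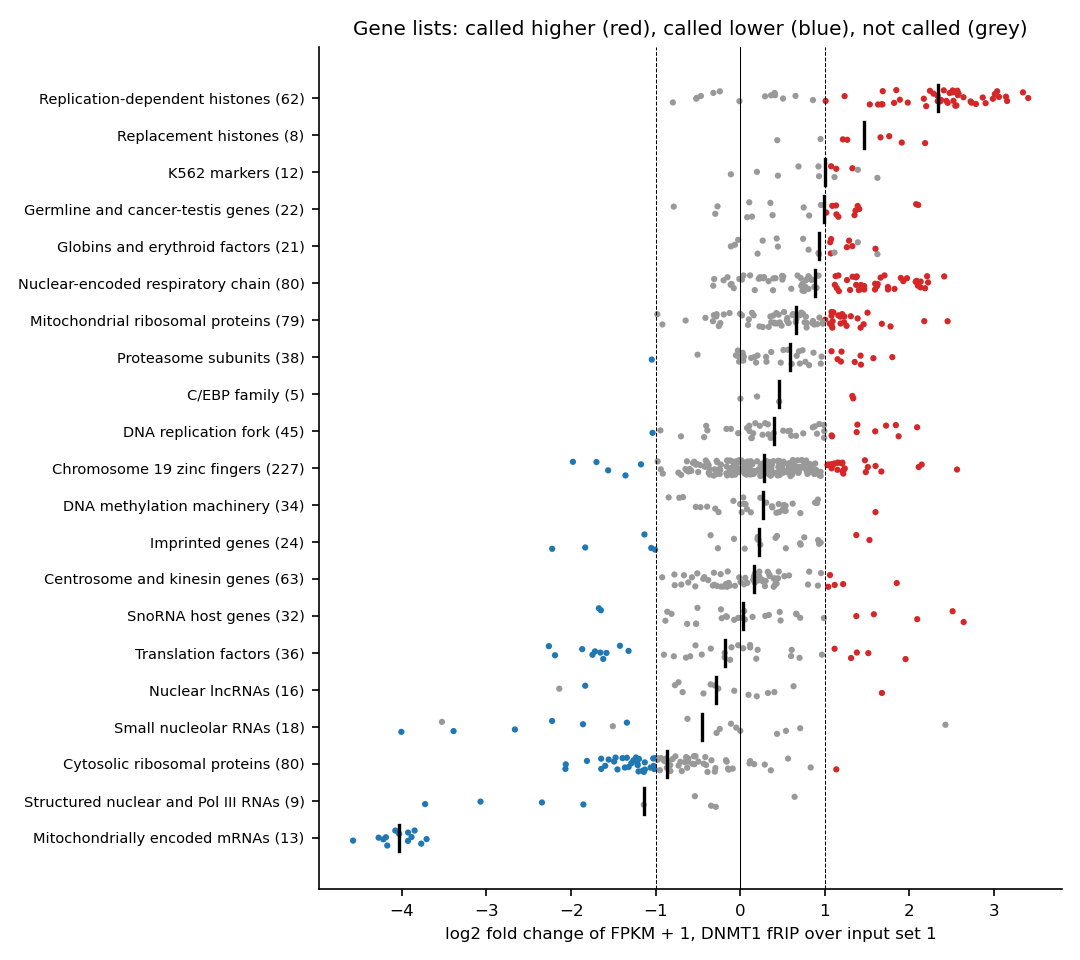
Log2 fold change of FPKM + 1 between the DNMT1 fRIP and input set 1 for every tested member of 21 gene lists (number of members in brackets), with the median of each list as a black bar. Red and blue points passed the call rule as enriched and depleted. The histone list (median 2.34) and the mitochondrially encoded list (median -4.03) lie at opposite ends.

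The mRNAs of DNMT1 itself and of its partner UHRF1 did not pass the call rule. DNMT1 mRNA (ENSG00000130816.10, chr19:10244018-10341962, minus strand) stood at 192, 157 and 155 FPKM in the fRIP and 135, 130 and 122 FPKM in input set 1. The groups did not overlap, but the log2 fold change was 0.38 ± 0.15 (adjusted p = 0.0326), below the fold that a call required. Against all 9 inputs, which ranged from 98.5 to 140 FPKM, every DNMT1 library was higher (exact permutation test, two-sided p = 0.00455, the smallest that 3 against 9 libraries allow). The same held for 21.9% of all genes. The median log2 fold change against set 1 was 0.28 over mRNA genes and 0.52 over mRNA genes above 100 FPKM in input. UHRF1 mRNA stood at 14.1, 12.6 and 17.5 FPKM against 12.2, 9.54 and 10.3 FPKM, and the change of 0.43 ± 0.29 was not called (adjusted p = 0.246).

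Of 34 tested genes of the DNA methylation machinery (writers, erasers, readers and their cofactors), 1 was enriched and 0 were depleted, shares below the 10.5% and 10% of all genes, with a median of 0.27. The enriched gene was ZBTB38, a zinc finger protein that binds methylated CpG. It stood at 89.7, 90.2 and 103 FPKM against 29.5, 31.9 and 29.8 FPKM, a log2 fold change of 1.6 ± 0.22 (adjusted p = 1.3e-08), and every DNMT1 library was above the 9 inputs (21.3 to 38.2 FPKM). The most abundant of the list, the corepressor TRIM28, stood at 717, 549 and 658 FPKM against 457, 440 and 440.3 FPKM and was not called. MBD1 and MAT2A came close to the threshold at 0.92 and 0.91. At the other end TET1, AHCY and TET3 had log2 fold changes of -0.85, -0.72 and -0.68. Against set 2, 4 members were enriched, near the 10.6% of all genes, as were 4 after centring, below the 17.3%, and 2 were enriched against set 3, against all 9 inputs and without DNMT1 replicate 2.

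DNA replication fork genes, whose products work where DNMT1 acts, had 9 of 45 members enriched and 1 depleted, with a median of 0.4. Of all genes 10.5% were enriched and 10% depleted, and of mRNA genes 15.4% and 2.81%. At 10 to 100 FPKM in input, 19.9% of mRNA genes were enriched, a share close to that of the list. PCNA, the sliding clamp that binds DNMT1, stood at 253, 223 and 303 FPKM against 67.5, 73.3 and 73.3 FPKM (log2 fold change 1.84). GINS4, a part of the replicative helicase, stood at 31.4, 35.7 and 49.8 FPKM against 10.2, 6.48 and 8.33 FPKM, and POLD4, a small subunit of polymerase delta, at 137, 141 and 105 FPKM against 39.4, 33 and 30.1 FPKM. CDC6, ORC4, RFC4, RPA3, POLA2 and POLE4 were also enriched, with log2 fold changes from 1.08 to 1.72. The licensing factor CDT1 was the depleted member, at 28.6, 30.9 and 20.4 FPKM against 64.8, 48.8 and 52.3 FPKM. Against sets 2 and 3, 8 and 6 members were enriched (10.6% and 9.01% of all genes), and after centring 17 were enriched and 0 depleted (17.3% and 6.54% of all genes).

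CEBPA mRNA was near the floor in these cells. The noncoding transcript of the locus that is known to bind DNMT1 was not matched to an entry of its own, so no value is given for it. The FPKM of the CEBPA gene entry was 0.0416, 0.176 and 2.1e-06 in DNMT1 and at most 0.0699 in the 9 inputs, so it was not tested. Of 5 tested genes of the family, 2 were enriched against input set 1, where 10.5% of all genes were. DDIT3, a stress-induced member, stood at 282, 421 and 330 FPKM against 113, 141 and 151 FPKM (log2 fold change 1.34 ± 0.43, adjusted p = 0.00902), and CEBPB at 33.4, 34.3 and 35.6 FPKM against 12.1, 12.8 and 14.7 FPKM (1.32 ± 0.38, adjusted p = 0.0035). Neither was called against set 3, and CEBPB was not called against set 2 or all 9 inputs either, at 0.84 and 0.85.

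Germline and cancer-testis genes, many of them on the X chromosome and silenced by promoter methylation in most somatic cells, had 11 of 22 members enriched, where 10.5% of all genes were, and 0 depleted, with a median of 0.99. PAGE5 stood at 180, 173 and 236 FPKM against 47, 41.6 and 45.2 FPKM (log2 fold change 2.1 ± 0.2, adjusted p = 1e-12). PAGE1 stood at 63.7, 89.2 and 125 FPKM against 15.6, 20.8 and 25.9 FPKM. PRAME, the most abundant of the list, stood at 1343, 1243 and 1618 FPKM against 682, 638 and 646 FPKM. MAGEA1, MAGEA3, MAGEA4, MAGEA12, MAGEC1, MAGEC2, SSX1 and GAGE1 were the others, and copies within the MAGE, PAGE and GAGE families are close in sequence. The list, of which PRAME made up the larger part in the DNMT1 libraries and input set 1, took 0.324% to 0.351% of summed FPKM in DNMT1 and 0.178% to 0.207% in the 9 inputs, and 7 and 8 members were enriched against sets 2 and 3. Without DNMT1 replicate 3, 6 were.

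Imprinted genes, which are expressed from 1 parental allele under the control of methylation that DNMT1 maintains, had 2 of 24 members enriched (BLCAP and DIRAS3), a share below the 10.5% of all genes, and 5 depleted (H19, KCNQ1OT1, NNAT, MEST and IGF2R), against 10% of all genes, with a median of 0.23. Against set 2 and against set 3 the counts were 4 enriched and 2 depleted. H19, a noncoding RNA, stood at 0.229, 0.399 and 0.512 FPKM against 3.29, 7.03 and 6.68 FPKM (log2 fold change -2.22 ± 0.52, adjusted p = 0.00037). The size of its change depended on the inputs, at -3.93 against set 2, -4.44 against set 3 and -3.53 against all 9. KCNQ1OT1, the antisense RNA of its imprinted cluster, stood at 0.198, 0.259 and 0.207 FPKM against 3.34, 3.37 and 3.33 FPKM (-1.83 ± 0.15, adjusted p = 3.9e-15). BLCAP stood at 44.2, 43 and 47.3 FPKM against 16.8, 13.4 and 14.6 FPKM. NNAT and MEST were under 3 FPKM in every library of both groups. Without DNMT1 replicate 3 or without input replicate 1, 5 members were enriched, without DNMT1 replicate 1, 1 was, and after centring 6 were enriched and 2 depleted.

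Chromosome 19 zinc finger genes, most of which encode KRAB repressors, had 23 of 227 members enriched and 5 depleted, a share of enriched genes close to the 10.5% of all genes. Against set 2, 41 were enriched and 2 depleted, where 10.6% and 6.14% of all genes were, and after centring 48 were enriched, where 17.3% were. ZNF888 stood at 13.8, 8.3 and 24.8 FPKM against 1.57, 1.87 and 1.34 FPKM, with up to 9.05 FPKM in the 9 inputs, which overlapped DNMT1, and its call was lost against set 3 (1.28). ZNF585A stood at 23.6, 31.3 and 29.4 FPKM against 5.41, 6.02 and 5.21 FPKM. ZNF121 was the lowest, at 7.37, 6.94 and 9.01 FPKM against 29.4, 35.2 and 36 FPKM. Centrosome and kinesin genes had 5 of 63 members enriched, a share below the 10.5% of all genes, and 0 depleted. KIF9 had the highest change, at 34, 35.5 and 45.4 FPKM against 8.55, 10.3 and 10.7 FPKM. CEP41 followed with a log2 fold change of 1.22 against set 1, and its call was lost against set 2 (0.98), set 3 (0.78) and all 9 inputs (0.99). The list had 3 enriched members without DNMT1 replicate 3 and 9 after centring.

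Globin and erythroid genes had 7 of 21 members enriched, where 10.5% of all genes were, and 0 depleted, and the globins varied widely between replicates. HBG2, a fetal beta-like globin, stood at 574, 1267 and 6103 FPKM in DNMT1 replicates 1, 2 and 3 and at 178, 901 and 944 FPKM in input set 1. The groups overlapped, and the log2 fold change of 1.62 ± 0.73 was not called (adjusted p = 0.0686). HBE1, HBG1, HBZ, HBA1 and HBA2 were likewise highest in DNMT1 replicate 3 and not called. HBD was called (log2 fold change 1.6 ± 0.59, adjusted p = 0.023), but the call was lost without DNMT1 replicate 3 (0.88) and without input replicate 1 (1.15), and also against set 2 (0.78) and set 3 (1.29). NFE2, an erythroid transcription factor, was tight, at 184, 153 and 192 FPKM against 71.3, 67.9 and 69.5 FPKM (1.33 ± 0.16, adjusted p = 1.2e-09). LDB1, GFI1B, ZFPM1, LMO2 and HBQ1 were also enriched, while TAL1 and MYB had changes of -0.11 and -0.06. Without DNMT1 replicate 3 the list had 4 enriched members, against sets 2 and 3 it had 4 and 3, and after centring 11. In a fit with a replicate block, which treats same-numbered DNMT1 and input libraries as pairs, it had 9. CD3D, listed as a marker of T cells, stood at 75.5, 86 and 61.7 FPKM against 24.1, 16.1 and 13.5 FPKM (2.02 ± 0.31, adjusted p = 2.3e-07). It was the only one of 5 tested markers of other lineages to be enriched against input set 1, while 2 were against set 2 and 2 against set 3. The summed FPKM of that list was 20.8 to 32 in input set 1 and 67.3 to 99.5 in the DNMT1 libraries.

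Several mRNAs with large rises were readthrough entries, which join 2 neighbouring genes and share exons with both, so their FPKM depends on how reads were divided. RPL36A-HNRNPH2 stood at 31.8, 29.5 and 40.4 FPKM against 0.375, 0.31 and 0.61 FPKM, and CHURC1-FNTB at 17.5, 22.6 and 26.2 FPKM against 0.0436, 0.292 and 0.338 FPKM. RP11-718G2.3, named SYNJ2BP-COX16 in the later annotation, stood at 23.6, 27.9 and 37.3 FPKM against 3.92, 5.31 and 0.755 FPKM. A second entry for F11R (ENSG00000270149.1) stood at 28.1, 34.6 and 30 FPKM against 2.42, 4.73 and 2.48 FPKM. All 4 were above the 9 inputs in every DNMT1 library, and their values are uncertain for the reason given.

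Structured and small noncoding RNAs that passed the call rule were all depleted. Of 9 RNAs with compact folds made by RNA polymerase III or as part of the minor spliceosome, RNase P, RNase MRP or telomerase, 4 were depleted, where 10% of all genes were, and 0 enriched. RPPH1, the RNA of RNase P, stood at 156, 169 and 179 FPKM against 1602, 1317 and 1347 FPKM (log2 fold change -3.07 ± 0.22, adjusted p = 5.7e-17). RN7SL1, of the signal recognition particle, stood at 9.81, 9.72 and 17.4 FPKM against 203, 147 and 163 FPKM, RMRP at 323, 292 and 475 FPKM against 1802, 1794 and 1823 FPKM, and the telomerase RNA TERC at 6.68, 4.75 and 6.36 FPKM against 29.6, 20.2 and 22.6 FPKM. The list took 0.0902% to 0.106% of summed FPKM in DNMT1 and 0.656% to 1.1% in the inputs. Of 18 small nucleolar and Cajal body RNAs, 6 were depleted and 0 enriched, where 10% and 10.5% of all genes were. The other 12 were not called, and 4 of the 18 had positive log2 fold changes, the highest 2.43. SCARNA9 stood at 11.7, 7.08 and 10.1 FPKM against 137, 91.4 and 101 FPKM. SCARNA22 stood at 16.5, 4.58 and 0 FPKM against 41.6, 48.5 and 191 FPKM, and its call was lost without DNMT1 replicate 3 or input replicate 3, at log2 fold changes of -2.9 and -3.32.

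The host genes of small nucleolar RNAs had 5 of 32 members enriched and 2 depleted, near the 10.5% and 10% of all genes, and 4 were depleted against all 9 inputs. Their share of summed FPKM was 0.734% ± 0.138 (SD, n = 3) in DNMT1 and 1.06% to 1.33% in the 9 inputs. SNHG9 stood at 40.1, 63 and 101 FPKM against 7.78, 9.68 and 10.7 FPKM (log2 fold change 2.64 ± 0.48, adjusted p = 6.3e-06), and RP11-1094M14.11, named SNHG30 later, at 51.6, 53.3 and 92.4 FPKM against 8.76, 10.9 and 11.5 FPKM. LINC00152, SNHG15 and SNHG11 were also enriched. GAS5, SNHG5 and SNHG3 had changes of -0.81, -0.88 and -0.86 and were not called, and without DNMT1 replicate 3 the list had 5 depleted members.

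Of 16 lncRNAs known for a nuclear role, 1 was enriched and 1 depleted, shares below the 10.5% and 10% of all genes, and the median log2 fold change was -0.28 (0.03 against all 9 inputs). PVT1, a lncRNA next to MYC, stood at 139, 167 and 173 FPKM against 46.1, 48.8 and 52.6 FPKM (log2 fold change 1.67 ± 0.17, adjusted p = 2.6e-12). KCNQ1OT1 was the depleted one. MALAT1, a nuclear speckle RNA and the most abundant of them, stood at 1278, 1349 and 1045 FPKM against 5083, 5471 and 5547 FPKM. The groups were far apart, but its spread over the 79 libraries was wide (-2.14 ± 1.31), so it was not called (adjusted p = 0.195). In a fit of the 6 libraries alone 2 members of the list were depleted, and with a pseudocount of 0.1 in place of 1, 3 were. NEAT1, of paraspeckles, stood at 73.5, 83.4 and 121 FPKM against 115, 127 and 127 FPKM and was not called.

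By class, 2102 of 13618 mRNA genes were enriched and 383 depleted (median log2 fold change 0.28), against 365 and 832 of 5245 lncRNA genes (median -0.15) and 128 and 1100 of 5247 pseudogenes (median -0.32). The lncRNA class is that of the annotation and also holds structured RNAs such as RPPH1 and SCARNA9. Taken per library, the median of lncRNAs minus that of mRNAs was -0.444 ± 0.033 (SD, n = 3) in the DNMT1 libraries, and -0.18 ± 0.035 (n = 6) in the inputs of sets 2 and 3 set against the same comparator (exact permutation test, two-sided p = 0.0119, the smallest that 3 against 6 allow, 0.0258 adjusted over the 13 tests of transcript features). The wider gap lay in the mRNA median, at 0.275 in DNMT1 and -0.015 in those inputs (exact permutation p = 0.0119, adjusted 0.0258). The lncRNA medians were -0.17 and -0.195 (exact permutation p = 0.31). Among genes with a mean of at least 5 FPKM this difference was -0.02 in DNMT1 and -0.23 in those inputs, so the order turned round. At 1 to 10 FPKM in input, 609 of 1934 lncRNAs were depleted and 233 enriched. At 10 to 100 FPKM, 66 of 342 were depleted and 82 enriched.

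The change of lncRNAs varied with their base composition. A CpG ratio was computed for each transcript as its CG dinucleotides over those expected from its C and G content. Across 5177 lncRNA genes, the Spearman correlation of this ratio with the log2 change per library averaged 0.332 ± 0.02 (SD, n = 3 libraries) in DNMT1 and 0.186 ± 0.046 (n = 6) in the inputs of sets 2 and 3 (exact permutation p = 0.0119, adjusted 0.0258). In the quintile of lncRNAs with the lowest ratio, 2.22% were enriched and 25.7% depleted. In the quintile with the highest, 15.1% were enriched and 5.31% depleted. The correlation with GC content was 0.277 in DNMT1 and 0.146 in the inputs (same p), and that with exon number 0.267 and 0.0374 (same p). CpG ratio and exon number were unrelated among these lncRNAs (-0.005), while CpG ratio and GC content were related (0.504), and all are correlations across genes, which are not independent replicates. Within lncRNAs at 1 to 10 FPKM in input, the correlation with the CpG ratio was 0.431 ± 0.017 (SD, n = 3) in DNMT1. It was 0.262 ± 0.025 under 1 FPKM and 0.326 ± 0.032 at 10 to 100 FPKM. The inputs were not measured within these levels.

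The 30-base stretches with the most CG dinucleotides in 3 of the most enriched and the 3 most depleted lncRNAs are shown to make the CpG ratio visible, with each CG in capitals. These lncRNAs were chosen by their fold change. SCARNA9 is a Cajal body RNA that the annotation files among lncRNAs. They were read 5′ to 3′ from the isoform most abundant in input (GENCODE v44, hg19), the enriched lncRNAs first.
SNHG9: taaaCGcCGgCGcctcCGtccccagcCGCG
RP11-707G14.1: tcctcagCGgattccCGaagtctcCGccCG
GS1-124K5.4: gCGctacttcccagcctgCGgCGtagggCG
LINC01028: agtgcctCGtactctgtgatggattttcCG
SCARNA9: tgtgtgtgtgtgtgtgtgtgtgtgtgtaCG
RP11-358B23.5: CGgaataagaatctagtatccagttctcac
These lie at chr16:2015033-2015062, chr11:73471644-73471673, chr7:65958831-65958860, chr17:68063346-68063375, chr11:93454841-93454870 and chr17:40420605-40420634, all on the plus strand and all in exons. The CpG ratios of the first 3 were 1.03, 0.78 and 0.732, and those of the last 3 were 0.281, 0.152 and 0.109. RP11-707G14.1 stood at 89.7, 95.4 and 95.7 FPKM against 12.8, 10.8 and 10.5 FPKM, and GS1-124K5.4 (LINC03011) at 29.4, 34.5 and 39.1 FPKM against 3.46, 5.98 and 4.01 FPKM. LINC01028, listed in the file under an older clone name, stood at 0.549, 0.957 and 0.717 FPKM against 21.5, 23.3 and 25 FPKM, and RP11-358B23.5 at 3.21, 2.99 and 2.93 FPKM against 40.8, 34.7 and 38.5 FPKM. RP11-227G15.3 is a further lncRNA that stood at 26.1, 26.9 and 53.5 FPKM in DNMT1, but it was listed at under 1e-07 FPKM in every input, so no fold is given.

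**Figure D4:**
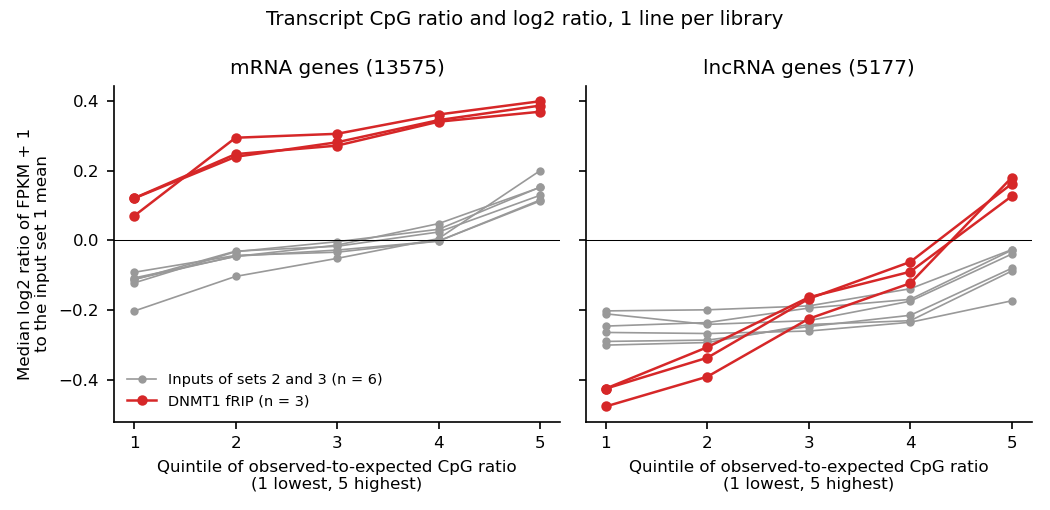
Median log2 ratio of FPKM + 1 to the mean of input set 1 (vertical) in quintiles of the transcript CpG ratio (horizontal), for 13575 mRNA genes and 5177 lncRNA genes, with 1 line per library (red, 3 DNMT1 fRIPs; grey, 6 inputs of sets 2 and 3). For lncRNAs the red lines run from below the grey ones in the lowest quintile to above them in the highest, and for mRNAs they lie above the grey ones throughout.

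In mRNAs the same measures told the DNMT1 fRIP apart from inputs less, or the other way. Shorter mRNAs were more enriched, with a correlation of -0.184 ± 0.031 (SD, n = 3 libraries) over 13575 genes, but inputs of sets 2 and 3 gave -0.184 ± 0.045 (n = 6) against input set 1 (exact permutation p = 1). In the shortest quintile of mRNAs 28.4% were enriched, and in the longest quintile 7.73%. Exon number did not separate the groups either (-0.0775 and -0.0972, exact permutation p = 0.5). The correlation with the CpG ratio was 0.138 in DNMT1 and higher, 0.228, in the inputs (p = 0.0119, adjusted 0.0258). The correlation with GC content was 0.0978 in DNMT1, where replicate 3 was at 0.0197, and -0.0276 in the inputs (p = 0.0595). Input level correlated with the change at 0.256 in DNMT1 and 0.385 in the inputs (p = 0.0476, adjusted 0.0774). The unadjusted p of that comparison was 0.179 without DNMT1 replicate 1 or without DNMT1 replicate 2, 0.0714 without input replicate 1 and 0.345 against all 9 inputs, and at a mean of at least 5 FPKM the correlation in DNMT1 was 0.0339 (exact permutation tests).

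Isoforms gave the same comparison at the level of splicing. Of 42461 protein-coding isoforms 18.4% were enriched and 6.73% depleted, and of 19390 isoforms annotated with a retained intron 6.62% were enriched and 6.22% depleted, where 13.4% and 7.31% of all 104506 isoforms were. Within 6394 genes that had both kinds tested, the retained-intron isoforms had the lower log2 fold change in 4373 (68.4%), with a median difference of -0.31. These isoform values were taken against input set 1 alone, and the other inputs were not set against it in this way. The share of FPKM in retained-intron isoforms was 21%, 19% and 18% in the DNMT1 libraries and 22.6%, 21% and 21% in input set 1, and the groups overlapped, with a difference in means of -2.19 points (exact permutation p = 0.2, where 3 against 3 allows no less than 0.1). The other 6 inputs stood at 15% to 16.4%, below all 3 DNMT1 libraries, so against all 9 inputs the difference had the opposite sign (1.75 points, exact permutation p = 0.382). Isoform FPKM is an estimate by the authors' software from short paired reads.

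CHD4, a remodeler of the NuRD complex, and CTCF, the architectural zinc finger protein, are chromatin proteins profiled in the same way. Set against the same input set 1, so that all comparisons share their controls, the CHD4 fRIP had 2 histone mRNAs enriched and 32 depleted (5.16% and 14.5% of all genes), and the CTCF fRIP 35 and 0 (0.401% and 1.4%). Of the 13 mitochondrially encoded mRNAs, 13 were depleted in CHD4 and 1 in CTCF, and of the 80 ribosomal protein mRNAs, 14 were enriched in CHD4 and 3 depleted in CTCF. A direct contrast with no input in it called 3090 genes higher in DNMT1 than in CHD4 (12.1%) and 912 lower (3.58%), and 2412 higher than in CTCF (9.48%) and 1339 lower (5.26%). Histone mRNAs were higher in DNMT1 in 51 of 62 cases against CHD4 and in 37 against CTCF, with 0 lower in both. Their share of summed FPKM was 0.451% to 0.557% in CHD4 and 1.44% to 2.12% in CTCF, under the 2.4% to 3.78% of DNMT1. All 13 mitochondrially encoded mRNAs were lower in DNMT1 than in CHD4, where their share was 0.124% to 0.335%, and than in CTCF, where it was 0.839% to 0.959%.

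Ribosomal protein mRNAs were lower in DNMT1 than in CHD4 in 60 of 80 cases and lower than in CTCF in 18, with 0 and 1 higher. RPS2, as an example, had a log2 difference of -3.19 from CHD4 and of -1.75 from CTCF. Respiratory chain mRNAs were higher in DNMT1 than in CTCF in 30 of 80 cases and lower in 1, whereas against CHD4 they were higher in 12 and lower in 4. Chromosome 19 zinc finger mRNAs were higher in DNMT1 than in CHD4 in 59 of 227 cases and lower in 1, and higher than in CTCF in 34 and lower in 2. Structured RNAs were lower in DNMT1 than in CTCF in 4 of 9 cases and than in CHD4 in 1. Of the genes enriched in DNMT1 by name, ZBTB38 was higher than in CHD4 by 2.58 and than in CTCF by 1.54 on the log2 scale, and PVT1 by 1.27 and 1.56. DNMT1 mRNA itself was higher in the DNMT1 fRIP than in CHD4 (1.25), while its difference of -0.26 from CTCF was not called. SNHG9 was higher than in CTCF by 3.5, while its difference of 0.54 ± 0.48 from CHD4 was not called (adjusted p = 0.466).

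**Figure D5:**
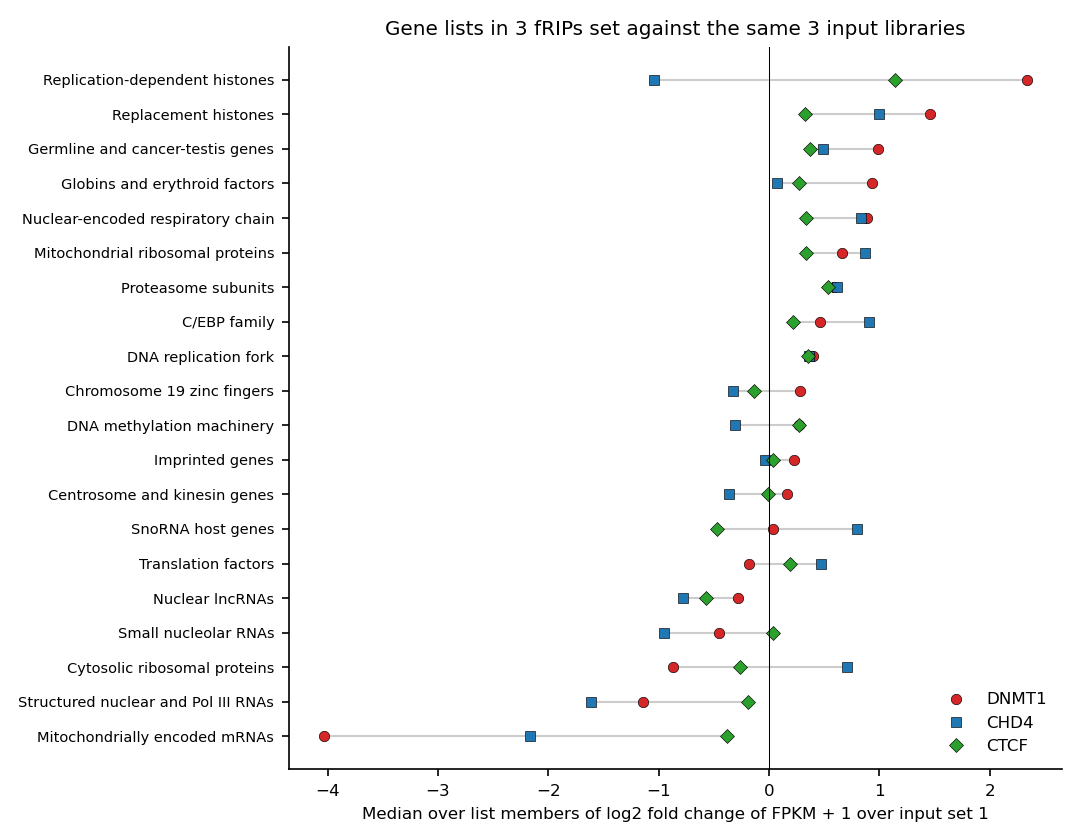
Median log2 fold change of FPKM + 1 over the same 3 libraries of input set 1 for 20 gene lists in the DNMT1 (circles), CHD4 (squares) and CTCF (diamonds) fRIPs. Histone mRNAs run from -1.04 in CHD4 through 1.15 in CTCF to 2.34 in DNMT1, and mitochondrially encoded mRNAs from -4.03 in DNMT1 to -0.38 in CTCF.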

How the data were processed

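K562 RNA was sequenced as fRIP and input libraries after ribosomal RNA removal. The authors called bases with CASAVA 1.4 (submitters' processing notes), aligned reads with TopHat to hg19 and GENCODE v18, and deposited gene and isoform FPKM from Cuffdiff 2 and Cuffnorm. FPKM is scaled to mapped fragments, so a few abundant RNAs can shift all others. The strand setting of the counting is not given in the sources used here. Of their table of comparisons (pooled FPKM, fold changes and p-values), the pooled input FPKM alone was used, to see which input set lay nearest.

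Samples were grouped by title. Genes (46055 of 48453) and transcripts (172143 of 185661) took class, position and sequence from GENCODE v44 on hg19 through their Ensembl identifiers, and transcript features were weighted by input isoform FPKM. Genes reaching 1 FPKM in 2 or more of the 79 libraries were fitted as log2(FPKM + 1) in limma 3.58.1 (R 4.3.3) with an intensity trend and 27 group means, with Benjamini-Hochberg adjustment. Exact permutation tests over libraries were two-sided. The fit was tested on simulated data. Python 3.11.15, pandas 2.3.3, scipy 1.17.1 and matplotlib 3.10.9 were used. Depth was read from the FPKM of 1 fragment in single-isoform genes, of which 97.3% to 99.3% of low values in these libraries lay within 0.15 of a whole multiple. It is approximate.

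The members and lists were chosen with earlier results of these data known. Named genes were DNMT1, UHRF1, CEBPA, the 8 highest and 6 lowest mRNAs and the 4 highest and 3 lowest lncRNAs by log2 fold change among called genes with a mean of at least 10 FPKM and no overlap between groups, and the 2 called members of each list with the largest change, or the most abundant member where fewer were called. Other list members, the replacement histones and the CpG ratio were added after values were seen. The replicate numbers of DNMT1 and input set 1 were not treated as pairs. Alternatives changed the pseudocount (0.1 or 0.5), the filter, the input set, the libraries in the fit, the centring and the replicates. The result for 1 gene is not reported here.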

Additional observations from a re-analysis of the deposited data

Results flagged for a closer look

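In 86 sets of values over the 9 inputs, or over the 6 inputs of sets 2 and 3, a single library lay far from the others in 7, where chance gives about 1 in 20. Input set 2 replicate 3 was the library in 4 of them: it was highest for UHRF1 (21.3 FPKM, next 14.7), MRPL55 (87.2 FPKM, next 53.5) and TRIM28 (570 FPKM, next 457), and lowest for the share of the C/EBP family (0.0187% of summed FPKM, next 0.0382%). CEP41 was highest in input set 3 replicate 3 (5.23 FPKM, next 3.77). SCARNA22 was highest in input set 1 replicate 3 (191 FPKM, next 96.4), and its call was lost without that library. RP11-227G15.3 was highest in input set 1 replicate 1, at 7.89e-08 FPKM, which is 0 in practice.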

How the results depend on the processing

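Enriched genes numbered 2684 and stayed within 1.5 times of that except after median centring (4399). Depleted genes numbered 2554, and 4091 with a pseudocount of 0.1, 556 at a mean of at least 5 FPKM, 1561 against set 2, 1357 against set 3 and 1663 after centring. The median log2 fold change of 0.0134 became 0.0302 and 0.0183 with pseudocounts of 0.1 and 0.5, 0 with no filter, 0.417 at a mean of at least 5 FPKM, 0.0537 against all 9 inputs, 0.0711 against set 2, 0.0863 against set 3 and 0.288 after centring, and ranged from 0.00097 to 0.0266 with 1 library left out. The GC correlation of mRNAs passed 0.05 with a pseudocount of 0.1 (0.104), at a mean of at least 5 FPKM (0.157) and without DNMT1 replicate 3 (0.137; range with 1 library left out 0.076 to 0.137). The correlation with input level lost the unadjusted threshold against all 9 inputs (0.138), without DNMT1 replicate 1 (0.286), without DNMT1 replicate 2 (0.287) and without input replicate 1 (0.23), ranged from 0.196 to 0.287 with 1 library left out, and was 0.0339 at a mean of at least 5 FPKM. The gap between lncRNAs and mRNAs relative to inputs turned round at a mean of at least 5 FPKM (-0.0224), and the retained-intron difference against all 9 inputs (1.75). The cause was not tested. A replicate block gave 2680 enriched and 2549 depleted genes, and the deviations of same-numbered libraries correlated at 0.339, -0.0084 and 0.169. Of 57 named genes tested, 10 lost a call under some alternative, 9 of them against set 3, and none changed sign. Against set 3, 12 histone mRNAs in place of 48 were enriched. Genes near 1 FPKM rest on few fragments, and 3 against 3 libraries cannot go below an exact p of 0.1.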
